A study of Mus musculus with 4 samples.

Results

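Chromatin immunoprecipitation sequencing (ChIP-seq) of Pcbp1, a poly-C-binding protein with KH domains, was examined at 10 genes of Nodal and Activin signalling: Nodal, Lefty1, Lefty2, Tdgf1, Acvr1b, Acvr2b, Smad2, Smad3, Smad7 and Skil. Peaks belonged to these genes when the summit lay within 50 kb of the annotated gene body. The rule took 8 of 3494 EpiLC peaks and 18 of 12132 Naive peaks, 26 of 15626 in all. The genes were chosen by name and not by their peaks, but with earlier results of these data known.

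The primed cells (EpiLC) were E14 Tg2a mouse embryonic stem cells kept for 48 hours in N2B27 medium with bFGF at 12 ng/ml, Activin A at 20 ng/ml and 1% KOSR. The Naive cells were the same line adapted over 3 passages to serum-free medium with LIF, the MEK inhibitor PD0325901 at 1 uM and the GSK3 inhibitor CHIR99021 at 3 uM, the state from which the EpiLC were derived. The labels name no genetic change in either group, and both come from 1 cell line. Each state had 1 Pcbp1 library and 1 input library, and the authors deposited 1 peak list for each state. Without replicates no difference between the states could be tested, and the values below carry counting error only. Peak lists hold no expression values, so the state of the cells could not be checked against marker transcripts.

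Nodal is a secreted ligand of the TGF-beta family. It signals through a type II receptor such as Acvr2b and the type I receptor Acvr1b, with Tdgf1 (Cripto) as co-receptor, while Activin uses these receptors without Tdgf1. The receptors phosphorylate Smad2 and Smad3, which enter the nucleus with Smad4. Lefty1 and Lefty2 are secreted antagonists of Nodal, Smad7 blocks the receptors from inside the cell, and Skil (SnoN) is a co-repressor that binds the Smads. Nodal and both Lefty genes are known targets of the pathway itself, which is active in pluripotent cells and sustains the primed state.

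RefSeq promoter windows of GRCm38.p6, from 250 bases before to 50 bases after a gene start, were at hand for 5 of the 10 genes. They were searched on both strands for CCCTCCC (a C-rich CT element of the kind that KH-domain poly-C-binding proteins bind), CAGAC (the Smad box) and AATCCAC (the start of the Foxh1 motif). No motif is contained in another, and overlapping matches were each counted. The windows of Tdgf1, Nodal and Acvr2b are printed 5′ to 3′, with matches to CCCTCCC or CAGAC, on either strand, in capitals. They show the promoter that a Naive peak covered, a promoter with a strong Naive peak farther upstream, and a C-rich promoter with no peak. The Acvr2b window lay wholly inside the annotated gene body, whose lower end is 119401583, and so did not contain that end.
Tdgf1, chr9:110946109-110946408, minus strand: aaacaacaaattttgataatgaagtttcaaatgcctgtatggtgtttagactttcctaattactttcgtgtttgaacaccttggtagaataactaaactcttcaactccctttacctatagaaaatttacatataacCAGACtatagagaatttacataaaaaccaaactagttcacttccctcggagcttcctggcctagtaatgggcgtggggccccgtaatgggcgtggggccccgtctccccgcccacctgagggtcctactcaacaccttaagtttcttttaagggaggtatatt
Nodal, chr10:61417722-61418021, plus strand: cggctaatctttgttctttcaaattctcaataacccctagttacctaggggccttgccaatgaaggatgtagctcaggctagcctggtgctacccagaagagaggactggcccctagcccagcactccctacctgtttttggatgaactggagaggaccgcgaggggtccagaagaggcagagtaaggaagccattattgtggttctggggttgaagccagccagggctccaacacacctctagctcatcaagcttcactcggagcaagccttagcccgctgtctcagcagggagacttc
Acvr2b, chr9:119401928-119402227, plus strand: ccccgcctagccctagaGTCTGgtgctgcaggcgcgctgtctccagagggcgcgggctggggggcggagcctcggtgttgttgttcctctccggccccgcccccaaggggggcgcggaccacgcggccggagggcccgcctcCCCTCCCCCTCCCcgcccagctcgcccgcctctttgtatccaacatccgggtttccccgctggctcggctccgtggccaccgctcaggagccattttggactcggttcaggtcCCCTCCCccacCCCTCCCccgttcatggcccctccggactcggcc

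The Tdgf1 window, the only member window of the 5 that met a peak of either list, lay wholly inside a Naive peak and held 0 matches to CCCTCCC and 1 to CAGAC. The Acvr2b window held 4 matches to CCCTCCC and 1 to CAGAC, and the Acvr1b window held 4 matches to CCCTCCC, some of which overlap in a repeated stretch. The Nodal and Smad3 windows held 0 matches to any of the motifs. Matches to AATCCAC numbered 0 in all 5 windows. Of 32851 promoter windows in the table, 22.0% held CCCTCCC, 49.6% CAGAC and 2.49% AATCCAC. The windows differed in base composition, with a GC content of 41.7% for Tdgf1, 54.0% for Nodal, 67.7% for Smad3, 73.3% for Acvr2b and 79.7% for Acvr1b, beside a median of 52.7% over all windows. A match is a description of the letters and not of a binding site.

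Depth was read from the peaks, since no source used here gives the number of reads. The summit pileup, the number of fragments over the summit, and the background used by the caller were recovered from the deposited fold and p-value of each peak. The lowest background in each list, taken as genome-wide, was 7.43 fragments in EpiLC against 4.004 in Naive, which makes EpiLC coverage 1.86 times as deep. At that background a site needed a pileup of 22 in EpiLC and 14 in Naive to reach the lowest −log10 p in its list, which equals a fold of 2.73 in EpiLC and 3.00 in Naive. Fold enrichment throughout is the authors' value for each peak, over the local background of the caller, and the interval after it is a 95% Poisson interval from the pileup.

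In EpiLC, 4 genes had a peak within 50 kb (Lefty1, Lefty2, Smad7 and Skil), beside 26.3% of 21887 protein-coding genes. In Naive, 7 genes had one (Nodal, Lefty1, Lefty2, Tdgf1, Acvr1b, Smad3 and Smad7), beside 58.1% of all genes. Lefty1, Lefty2 and Smad7 had peaks in both lists (22.4% of all genes). Skil had a peak in the EpiLC list alone (3.91%), and Nodal, Tdgf1, Acvr1b and Smad3 in the Naive list alone (35.7%). Acvr2b and Smad2 had none in either list (37.9%). With 10 genes, these counts were not far from the shares over all genes. Lefty1 and Lefty2 lie 35.9 kb apart and share most of their peaks, so they do not count as independent genes. The median gene body was 28.2 kb beside 17.2 kb over all genes, but Nodal, Lefty1, Lefty2 and Tdgf1, at 3.38 to 7.37 kb, were shorter than that.

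**Figure D1:**
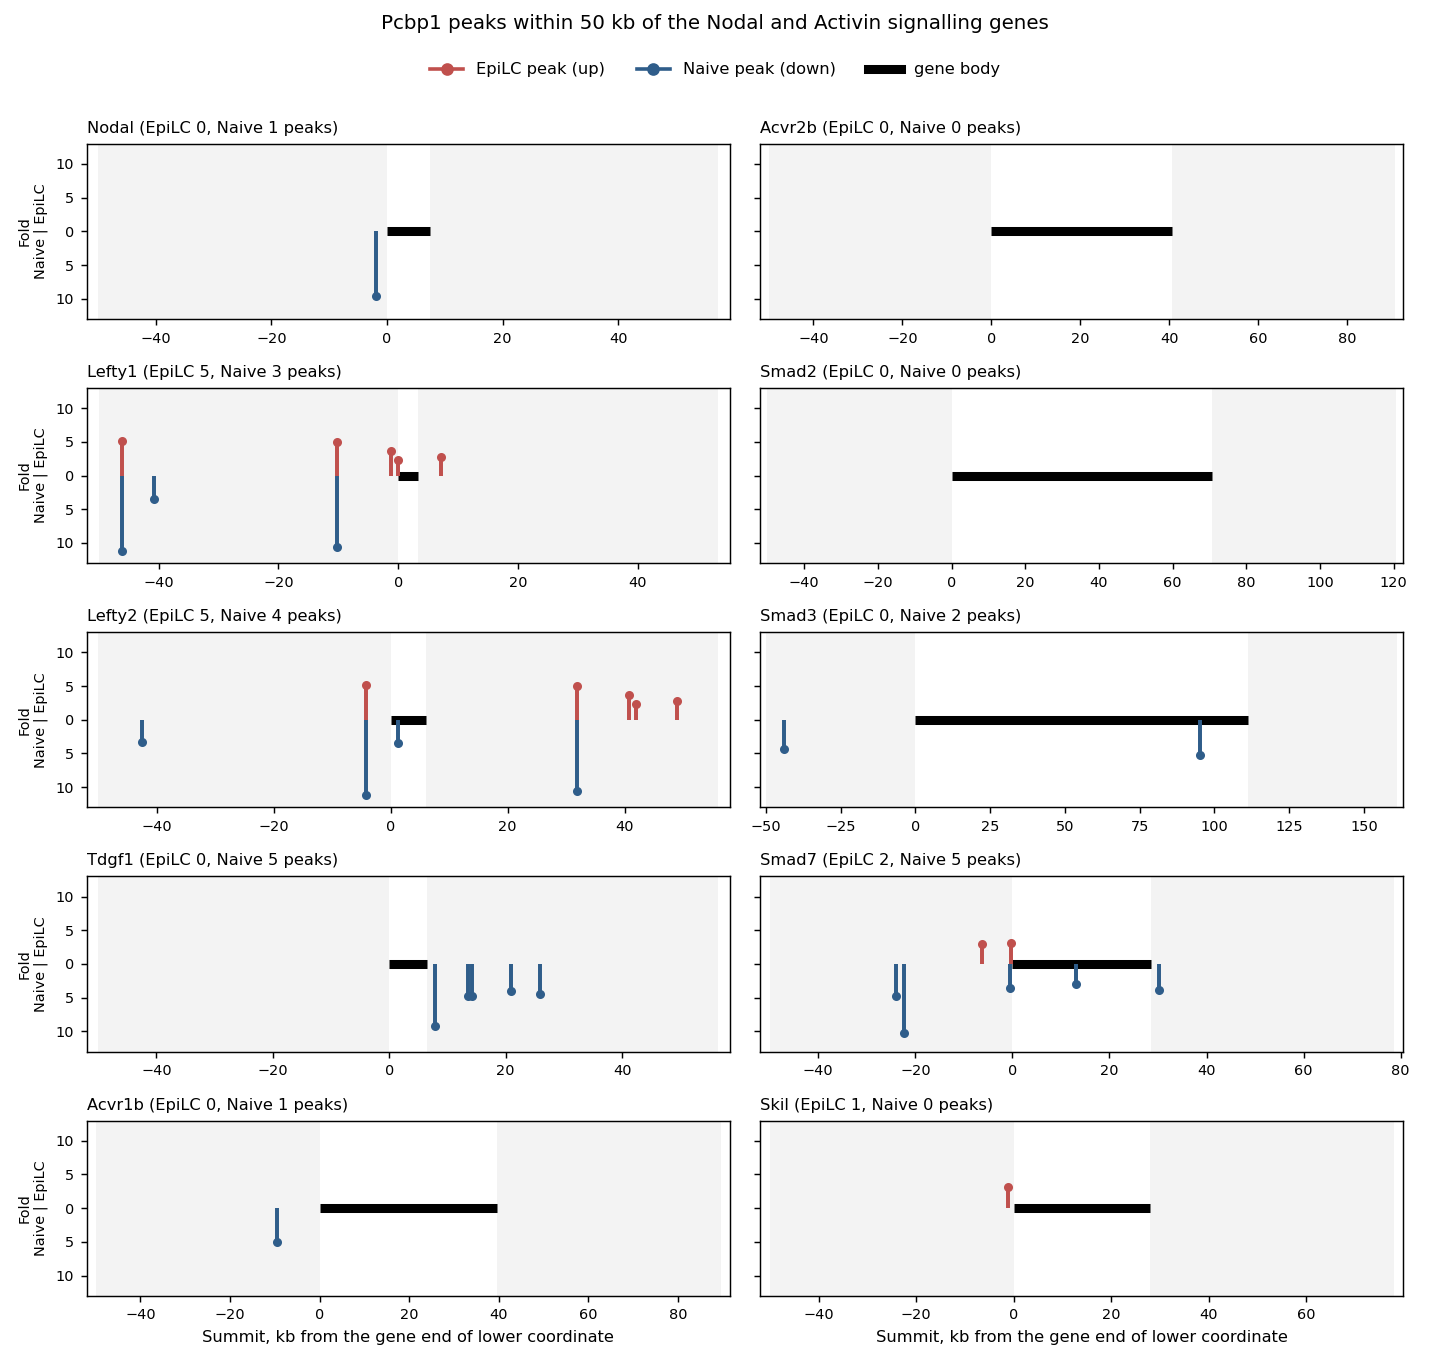
Peaks within 50 kb of each gene, with the distance of the summit from the gene end of lower coordinate in kb (x axis) and the deposited fold (y axis), EpiLC upwards and Naive downwards. Black bars are gene bodies and grey bands the 50 kb flanks. Lefty1 and Lefty2 show the same pair of tall Naive lines mirrored in EpiLC, while Nodal, Tdgf1, Acvr1b and Smad3 have lines in Naive only.

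Counted per length, the windows of the 10 genes held 6.26 EpiLC peaks per Mb, beside 1.67 in the windows of all protein-coding genes. Of the 8 EpiLC peaks, 5 lay at the Lefty genes, and without those genes the density was 2.65 per Mb. For Naive the density was 14.1 peaks per Mb at the 10 genes, 12.4 without the Lefty genes, and 6.13 over all genes. Of the 14 Naive peaks left without the Lefty genes, 5 lay near Tdgf1 and 5 near Smad7. The Naive list is the longer one, and the order of the counts depended on that: with the Naive list shortened to the 3494 peaks of lowest p-value, the genes had 8 EpiLC peaks against 5 Naive peaks.

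Of the 8 EpiLC peaks, 3 overlapped a Naive peak by at least 1 bp, beside 48.3% of all EpiLC peaks. Of the 18 Naive peaks, 3 overlapped an EpiLC peak, beside 13.7% of all Naive peaks. With so few peaks these counts stood near the share over each whole list. The common sites were a pair near the Lefty genes and 1 just outside Smad7. With a reciprocal overlap of at least 50% required, 1 of the 3 remained in each direction. The peaks at these sites were 448, 335 and 286 bp wide in EpiLC and 1251, 464 and 557 bp wide in Naive.

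At Nodal, the ligand gene (chromosome 10, 61417972 to 61425338), the EpiLC list had no peak within 50 kb, and a single Naive peak lay 1948 bp upstream of the gene start (61415815 to 61416229). The Naive peak had a fold of 9.65 (7.33 to 12.5) on a pileup of 56. Of all Naive peaks, 2.79% had a fold at least as high. This fold was well above the 2.73 at which a site with genome-wide background entered the EpiLC list. The EpiLC level at this place is not given by a peak list, and a higher local background there would raise the fold needed. The next peaks in either list lay over 100 kb away, near Pald1, with a fold of 4.24 (3.17 to 5.57) in EpiLC and 4.49 (2.97 to 6.54) in Naive.

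The antagonist genes Lefty1 (chromosome 1, 180935022 to 180938401) and Lefty2 (180893108 to 180899107) formed the richest locus, with 5 EpiLC and 4 Naive peaks. At least 5 EpiLC peaks within 50 kb were found at 0.662% of all genes, and Lefty1 and Lefty2 were the members that reached it, through the same peaks. The first common site lay 4.21 kb below the lower end of Lefty2. Its EpiLC peak (180888661 to 180889108) had a fold of 5.17 (4.30 to 6.17), and its Naive peak (180888390 to 180889640) had 11.2 (8.64 to 14.4). The summits were 4 bp apart. The second common site lay between the genes, 10.1 kb below the lower end of Lefty1, inside the annotated lncRNA gene Gm39715. There the fold was 5.05 (4.12 to 6.14) in EpiLC and 10.6 (8.09 to 13.7) in Naive, with summits 22 bp apart. Both sites stood high in their lists: 10.8% and 11.9% of EpiLC peaks had a fold at least as high, and 1.51% and 1.96% of Naive peaks.

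The lower EpiLC folds at the Lefty sites stood beside a higher local background. The EpiLC pileups were the higher ones, but EpiLC coverage was 1.86 times as deep, so raw pileups do not compare signal between the lists. At the site near Lefty2 the pileup was 122 in EpiLC and 61 in Naive, while the local background was 3.07 times the genome-wide one in EpiLC and 1.13 times in Naive. At the site near Lefty1 the pileup was 100 in EpiLC and 57 in Naive, and the local background 2.55 times in EpiLC and 1.11 times in Naive. Set over the genome-wide background of each list instead, the site near Lefty2 reached a fold of 14.6 (12.1 to 17.4) in EpiLC and 12.4 (9.52 to 15.9) in Naive. The site near Lefty1 then reached 12.0 (9.77 to 14.5) in EpiLC and 11.6 (8.83 to 15.0) in Naive. On this scale the intervals of the lists overlapped at both sites, whereas on the deposited scale they did not. Across all 1689 EpiLC peaks that overlapped a Naive peak, the median log2 difference (EpiLC over Naive) was −0.58 on the deposited scale and −0.016 over the genome-wide background. At these overlapping sites the median local background was 1.92 times the genome-wide one in EpiLC and 1.14 times in Naive. Over all peaks of each list the medians were 1.66 times in EpiLC and 1.11 times in Naive. The part of the local background in the difference was not tested, since the genome-wide scale removes it by construction. No source used here names the control behind the local background.

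**Figure D2:**
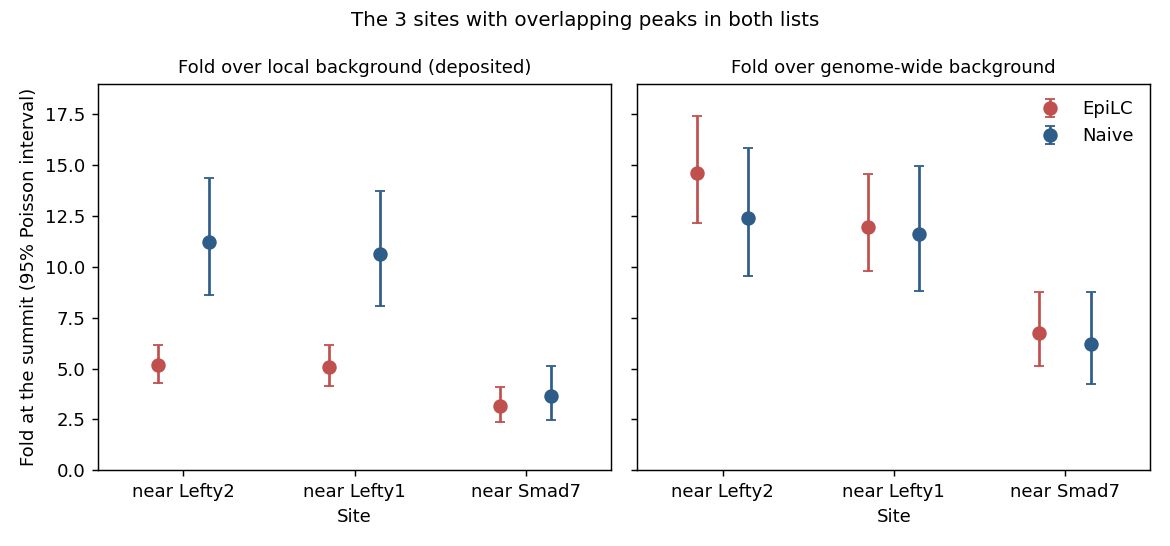
Fold at the 3 sites with overlapping peaks (x axis), EpiLC left of Naive, over the local background as deposited (left panel) and over the genome-wide background of each list (right panel), with 95% Poisson intervals. Near Lefty2 the deposited folds are 5.17 in EpiLC and 11.2 in Naive, and over the genome-wide background 14.6 in EpiLC and 12.4 in Naive.

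The other 3 EpiLC peaks of this locus had no Naive overlap and lay around Lefty1. The strongest, 1.11 kb below the lower end of the gene, had a fold of 3.63 (2.82 to 4.60) on a pileup of 66. A weaker peak had its summit 9 bp from the lower end of Lefty1, with a fold of 2.33 (1.68 to 3.17), and 92.6% of EpiLC peaks were at least as high. The last lay 163 bp from Tmem63a, a neighbouring gene, with 2.81 (2.04 to 3.79). The local background at the 5 EpiLC peaks was 1.87 to 3.07 times the genome-wide one, so each was called against a raised background. The Naive list had instead a peak inside Lefty2, at 3.45 (2.15 to 5.29), and a peak 567 bp from Sde2, a neighbouring gene, at 3.24 (2.14 to 4.72). Within 1 kb of a gene end, Lefty1 and Smad7 had an EpiLC peak (5.61% of all genes) and Smad7 a Naive peak (19.3%).

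Tdgf1, the co-receptor gene (chromosome 9, 110939608 to 110946158, minus strand), had 0 EpiLC peaks and 5 Naive peaks within 50 kb. At least 5 Naive peaks were found at 6.37% of all genes, and Smad7 was the other member to reach it. The strongest, and at 2613 bp the widest of the 26 peaks, covered the promoter window printed above (110945930 to 110948542), with its summit 1370 bp upstream of the gene start and a fold of 9.19 (6.76 to 12.2). Its local background was equal to the genome-wide one. Of all Naive peaks, 3.45% had a fold at least as high. The other 4 lay farther upstream of Tdgf1, inside the neighbouring gene Lrrc2, with folds of 4.71, 4.82, 3.99 and 4.45. The 5 summits spanned 18.0 kb. The nearest EpiLC peak was 616 kb from Tdgf1.

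The receptor genes had little. Acvr1b, the type I receptor gene (chromosome 15, 101174072 to 101213684), had no EpiLC peak within 50 kb and 1 Naive peak 9.55 kb upstream of the gene start, with a fold of 4.996 (3.27 to 7.34). Acvr2b, the type II receptor gene (chromosome 9, 119401583 to 119442148), had no peak within 50 kb in either list. Its promoter window held 4 matches to CCCTCCC. The nearest peak to Acvr2b was a Naive peak at 79.0 kb, inside Oxsr1, with a fold of 3.80 (2.33 to 5.88).

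Smad2 and Smad3, which carry the signal to the nucleus, had different counts in Naive. Smad2 (chromosome 18, 76241090 to 76311748) had no peak within 50 kb in either list, and the nearest lay 284 kb away in EpiLC and 245 kb away in Naive. Smad3 (chromosome 9, 63646766 to 63757994, minus strand) had no EpiLC peak and 2 Naive peaks. The stronger lay inside the gene, 15992 bp downstream of its start, with a fold of 5.25 (3.55 to 7.50). The weaker, at 4.27 (2.91 to 6.07), lay inside Aagab at the end of that gene and within 1 kb of an end of Iqch. Whether the stronger is exonic or intronic could not be read from the gene table, which holds no exons.

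Smad7, the inhibitory Smad gene (chromosome 18, 75367365 to 75395935), had 2 EpiLC and 5 Naive peaks. The common site lay just outside its lower end, with summits at 347 bp in EpiLC and 427 bp in Naive, both inside the annotated lncRNA gene Gm20544. Its fold was 3.15 (2.39 to 4.08) in EpiLC and 3.63 (2.49 to 5.14) in Naive, with overlapping intervals. Smad7 was the member with a gene-end peak in both lists (4.09% of all genes). The other EpiLC peak, 6.31 kb below the lower end, had 2.92 (2.17 to 3.84) and no Naive overlap. The highest Naive peak at this gene lay 22.3 kb below its lower end (75344636 to 75345662), with a fold of 10.2 (7.62 to 13.4) and no EpiLC overlap. A weaker Naive peak of 4.80 (3.11 to 7.10) lay close by at 24.1 kb. The remaining Naive peaks, inside the gene and 1.60 kb above its upper end, had folds of 2.99 and 3.84.

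Skil, the Smad co-repressor gene (chromosome 3, 31095058 to 31122923), was the member with EpiLC peaks alone. Its EpiLC peak lay 1235 bp below the lower end of the gene (31093485 to 31093908), with a fold of 3.21 (2.24 to 4.46) on a pileup of 33. Its local background, 1.29 times the genome-wide one, was the lowest of the 8 EpiLC peaks. Of all EpiLC peaks, 59.8% had a fold at least as high. Over the genome-wide background the fold was 4.03 (2.81 to 5.61), beside the 3.00 at which a site with genome-wide background entered the Naive list. Whether a site of like fold missed that list was not tested. The nearest Naive peak lay 99.5 kb away near Prkci, with 9.39 (6.93 to 12.5).

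Among themselves, the folds of the Naive peaks fell into 2 ranges, split at a gap chosen after the values were seen. The 5 peaks near Lefty2, Lefty1, Smad7, Nodal and Tdgf1 had folds of 9.19 to 11.2, and the other 13 had 2.99 to 5.25. Some intervals overlapped across the gap, such as 6.76 to 12.2 near Tdgf1 and 3.55 to 7.50 inside Smad3. Of the 5, those near the Lefty genes overlapped an EpiLC peak and those near Smad7, Nodal and Tdgf1 did not. The EpiLC peaks ran from 2.33 to 5.17, with a median of 3.18 beside 3.41 in the whole EpiLC list, and 3 of 8 were above that median. Over the genome-wide background this order turned, with a median of 6.34 at the 8 peaks beside 5.46 in the whole EpiLC list. The Naive median was 4.76 beside 4.43 in the whole Naive list, with 11 of 18 above it, and over the genome-wide background 5.60 beside 4.996. Median widths were 336 bp in EpiLC and 452.5 bp in Naive.

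**Figure D3:**
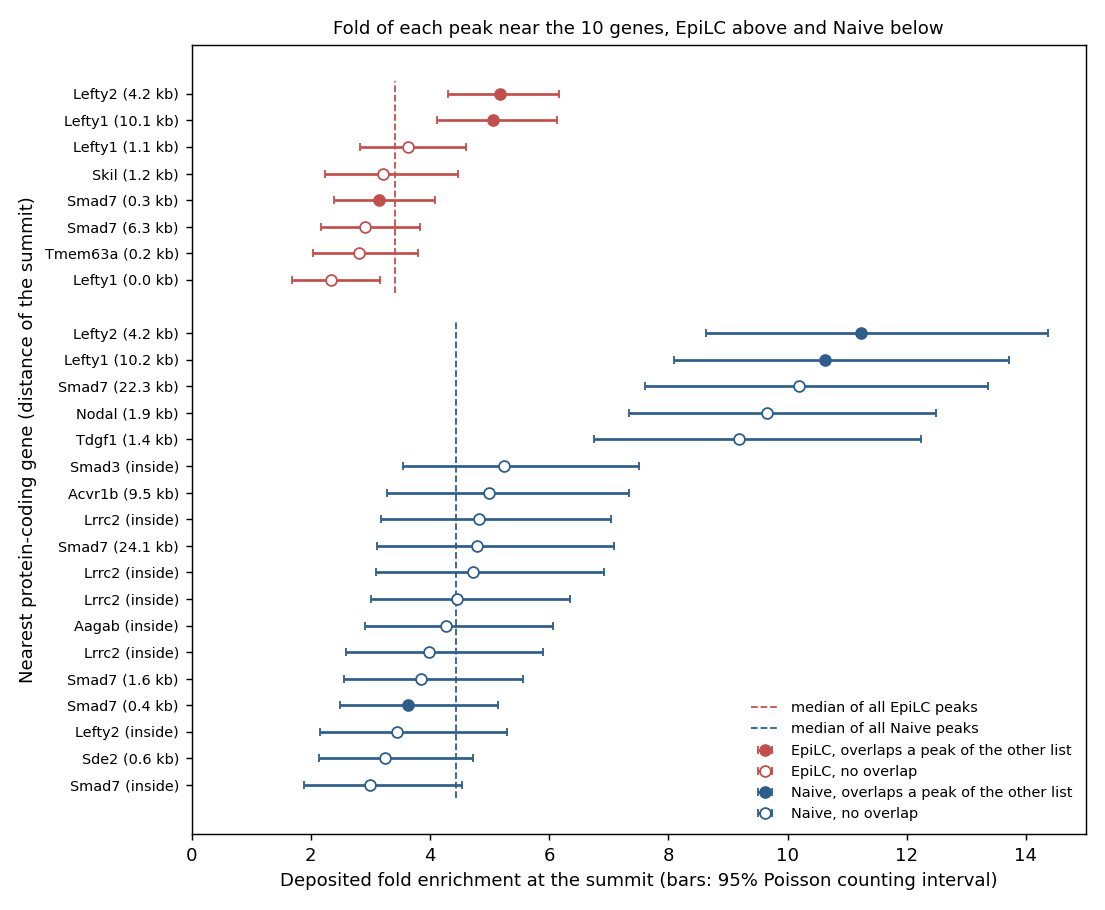
Deposited fold of each of the 26 peaks (x axis) with its 95% Poisson interval, EpiLC above and Naive below, named by the nearest protein-coding gene with the distance of the summit. Filled points overlap a peak of the other list, and dashed lines give the median of the whole list. The 5 Naive peaks of 9.19 to 11.2 lie above the other 13 in fold, though some intervals overlap, and no EpiLC peak is above 5.17.

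The genes reached by a peak changed with the distance allowed. Within 10 kb of the body, 4 of the 10 genes had an EpiLC peak, beside 13.5% of all genes, and 6 had a Naive peak, beside 36.6%. Within 1 kb of the body the numbers were 2 in EpiLC, beside 9.27% of all genes, and 3 in Naive, beside 27.9%. Within 100 kb they were 5 in EpiLC, beside 37.2%, and 9 in Naive, beside 70.6%. At the edge of the rule, the EpiLC summit farthest from its nearest member lay 10.1 kb from Lefty1. The farthest Naive summits lay at Sde2, 42.5 kb from Lefty2, and at Aagab, 43.8 kb from Smad3. The nearest summits left out lay near Acvr1b, at 70.4 kb in EpiLC with a fold of 3.36 and at 63.8 kb in Naive with a fold of 3.25.

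**Figure D4:**
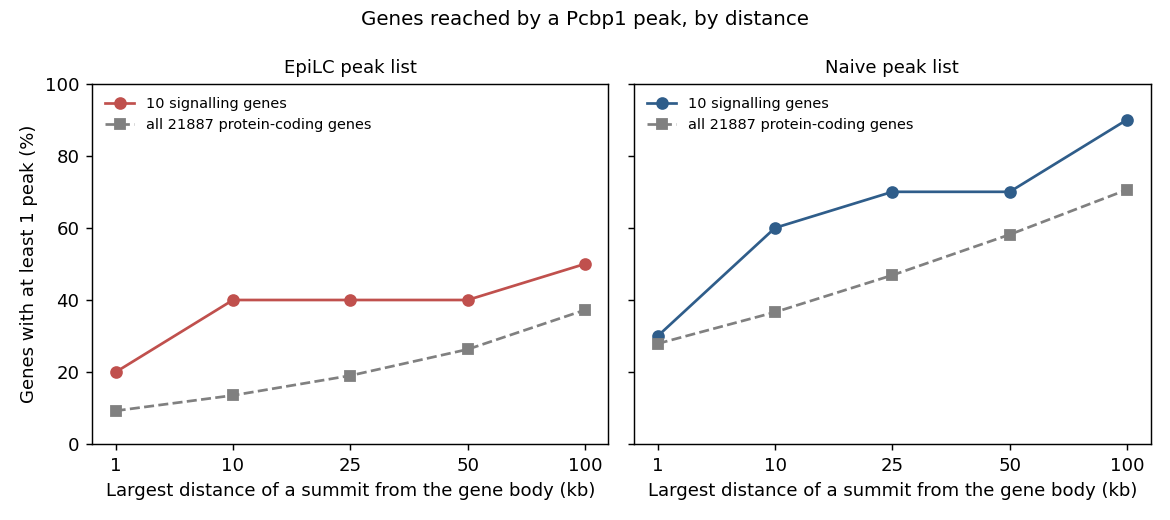
Share of genes with at least 1 peak (y axis, %) against the largest distance allowed between summit and gene body in kb (x axis, unevenly spaced steps), for the 10 genes (coloured) and all 21887 protein-coding genes (grey), EpiLC left and Naive right. At 10 kb, 4 of 10 genes are reached in EpiLC against 13.5% of all genes, and at 1 kb in Naive 3 of 10 against 27.9%.

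The wider pathway was read from 4 further lists with 56 genes, all matched to the gene table. Within 50 kb, 17 of the 56 had an EpiLC peak (30.4%, beside 26.3% of all genes) and 33 a Naive peak (58.9%, beside 58.1%). Taken as 1 set these genes stood near the background, but the separate lists ranged from 7.14% to 52.9% in EpiLC and from 33.3% to 76.5% in Naive. Peaks in both lists were found at 15 genes, beside 22.4% of all genes. Peaks in EpiLC alone were found at 2 (beside 3.91%) and in Naive alone at 18 (beside 35.7%).

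Among 16 other ligands, co-receptors and secreted antagonists, 5 had an EpiLC peak within 50 kb (31.25%, beside 26.3% of all genes). A Naive peak was found at 10 (62.5%, beside 58.1%). Tgfb2, a TGF-beta ligand gene, had the highest EpiLC fold, 5.72 (4.38 to 7.35), at a peak inside the gene with no Naive overlap. Inhbb, which encodes a subunit of Activin B, had the highest Naive fold, 7.39 (5.24 to 10.2), at a peak 31.7 kb away and nearest to Ralb. Among 9 other receptors, 2 had an EpiLC peak (22.2%) and 3 a Naive peak (33.3%). Acvr2a, a type II receptor gene, had an EpiLC peak of 3.60 (2.56 to 4.92) nearest to Orc4. Bmpr1a, a BMP receptor gene, had EpiLC and Naive peaks, of at most 2.32 in EpiLC and 6.36 in Naive, that lay at least 31769 bp away and nearest to other genes.

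Among 17 other Smads and Smad partners, 9 had an EpiLC peak (52.9%, beside 26.3% of all genes). A Naive peak was found at 13 (76.5%, beside 58.1%). A gene-end peak in both lists was found at 4, beside 4.09% of all genes. Smad6, the inhibitory Smad of the BMP branch, had a fold of 10.3 (8.58 to 12.4) in EpiLC and 10.1 (7.69 to 13.2) in Naive within 1 kb of its end, where Smad7 had 3.15 in EpiLC and 3.63 in Naive. Usp9x, a deubiquitinase that acts on Smad4, had 12.7 (10.4 to 15.3) in EpiLC and 11.99 (9.17 to 15.4) in Naive. Ppm1a, a phosphatase of Smad2 and Smad3, had 5.30 (4.02 to 6.87) in EpiLC and 5.79 (3.92 to 8.29) in Naive. Tgif1, a Smad co-repressor gene, had 4.39 (3.30 to 5.73) in EpiLC and 3.99 (2.67 to 5.73) in Naive at its gene end. The intervals of these gene-end peaks overlapped between the lists at each of the 4 genes. Within 50 kb, Tgif1 had 1 EpiLC peak and 10 Naive peaks, of which 9 had no EpiLC overlap, and the highest Naive fold was 10.3 (7.86 to 13.2), nearest to Dlgap1.

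A further list held 14 genes that respond to Nodal or Activin in early embryos and stem cells. Within 50 kb, 1 of the 14 had an EpiLC peak (7.14%, beside 26.3% of all genes). A Naive peak was found at 7 (50%, beside 58.1%), namely Gsc, Lhx1, Bmp4, Id1, Id2, Id3 and Bambi. Id3, a gene better known as a BMP target, had 0 EpiLC peaks within 50 kb and the highest Naive fold of the list, 14.2 (11.2 to 17.8), 1.56 kb from the gene. With Id3 among them, the 7 do not stand for targets of Nodal or Activin alone. Pmepa1, Eomes, T, Mixl1, Foxa2 and Sox17, 6 of the 14, had no peak within 50 kb in either list, beside 37.9% of all genes. These genes were named after their values were seen.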

How the data were processed

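Pcbp1 ChIP-seq and input were sequenced in EpiLC and Naive cells, with 1 library per group and 4 groups. Fragments were around 500 bp, per the labels. Per the submitters' processing notes the tools were MACS2, Bowtie2, fastp and Picard, on GRCm38 (mm10), without versions or order. The caller's control is not stated there. The authors deposited 1 peak list per state, with a fold (a ratio over the caller's local background), −log10 p-value and −log10 q-value for each peak, a score made from the q-value and, as another column, the summit's distance from the peak start.

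Pileup p and background b were solved from fold = (p + 1) / (b + 1) and the Poisson probability of a larger pileup. Whole-number pileups gave the deposited −log10 p within 0.001 at 100% of peaks. Each list's lowest background stands for the genome-wide one. The 95% intervals are exact Poisson intervals and cover counting error only. Recovery and overlaps were tested on simulated data. Genes came from RefSeq GRCm38.p6 (21887 protein-coding), without strand or exons; promoters came from its promoter table. No test compares the states. All 10 genes are named, with the nearest protein-coding gene of each peak. In the list of responding genes, those with a Naive peak and those with no peak are named as well. Other pathway genes are named for the highest fold of their list or a gene-end peak (within 1 kb) in both lists. A gene that this rule names is not reported here. Members and lists were chosen with earlier results of these data known. Alternatives were other distances, nearest gene only, a fold or −log10 q of at least 5, a shortened Naive list, other overlap rules and the genome-wide background. Tools were scipy 1.17.1, pandas 2.3.3, numpy 2.4.6, matplotlib 3.10.9 and Python 3.11.15.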

Additional observations from a re-analysis of the deposited data

How the results depend on the processing

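Of 45 alternative values, 34 stayed within 1.5 times the reported value, 8 moved further and 3 changed sign. Some of the 34 could not move, since shortening the Naive list leaves the EpiLC counts of peaks and genes as they are. At a fold of at least 5, 2 EpiLC and 6 Naive peaks were left near the genes and 2 genes kept an EpiLC peak. Within 10 kb, 11 Naive peaks were left, and with the Naive list at the EpiLC length, 5. With a reciprocal overlap of at least 50%, 1 EpiLC and 1 Naive peak counted as shared. Over the genome-wide background the median fold was 6.34 in EpiLC (5.60 in Naive). The log2 difference of EpiLC over Naive went to 0.24 near Lefty2 (deposited −1.12), 0.048 near Lefty1 (−1.07) and 0.13 near Smad7 (−0.21). The intervals of the lists overlapped at each of these sites, so the sign there was not established. This fold adds 1 to pileup and background, as the deposited one does, which lowers it more in Naive, where the background is lower. Values without the added 1 were not tested. By construction this setting removes the local background. No replicate could be left out, since each group had 1 library. No paired analysis was possible because no result comes from a test between replicated groups. A peak missing from a list sets no upper limit on signal there.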
